A study of Mus musculus with 12 samples.

Results

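The 34 genes described here make cholesterol, sense it, store it or move it out of the cell. They were chosen by symbol from a fixed list of such genes, and all 34 were found among 21030 genes in the table and passed the filter on low counts (15737 genes tested). RNA came from bulk cultures of dissociated spinal cord, a mix of neurons, progenitors and some other cells, taken from C57BL/6 mice of wild-type genotype at embryonic day 12 and kept for 48 hours in Neurobasal medium with B27. Every well carried poly-D-lysine (PDL, 20 μg/ml), a polymer that cells stick to. The 4 coats were PDL alone, PDL with laminin (1 μg/ml), PDL with membranes of wild-type myelin (10 μg/ml) and PDL with both, named PDL, Laminin, Myelin and laminin plus myelin below. There were 3 libraries a coat and 12 in all, numbered 1 to 3 within each coat. The labels call these biological replicates without saying what they shared, so p-values measure the spread between these wells. Where the number is in the fit as a block, they measure the spread left once differences between numbers are removed. The labels also speak of myelin-coated wells that held no cells, taken to control for RNA in the coat, which are not analysed here.

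Cells build cholesterol from acetyl-CoA through mevalonate, isoprenoids and squalene, and when membranes run low in sterol the transcription factor SREBP2 switches on nearly every enzyme of this chain. A cell that takes in much cholesterol does the reverse. It holds SREBP2 back through the INSIG proteins, and oxysterols switch on the nuclear receptor LXR, whose targets export the surplus. Myelin is a membrane rich in cholesterol, and developing neurons and glia make most of their own sterol, since lipoproteins of the blood do not cross into the nervous system.

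The depth of a library lay between 36061511 and 45024091 counts in genes. The share of reads outside annotated genes was 17.4% to 19.4% in the 3 PDL libraries and 8.46% to 13.7% in the other 9, with no overlap. Libraries with the same replicate number deviated together in every coat, so values from a fit with the number as a block stand beside those from the fit without it. The neuronal markers summed to 6409 to 7938 CPM (counts in genes scaled to a common library size) on PDL and 6576 to 8369 on Myelin, and the progenitor markers to 473 to 731 and 487 to 907, so the cultures carried the defining genes of both cell types. Microglial markers were also present, at 42.7 to 110.4 CPM on PDL and 55.2 to 207 on Myelin.

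The synthesis genes share a sequence feature that no count was used to find. The 250 bases before the annotated start were read from RefSeq promoters (GRCm38.p6), which held 26 of the 34 genes, and searched on both strands for 3 motifs, with no match of one overlapping a match of another. CCAAT, the box bound by NF-Y, a partner of SREBP2, was found in 21 of these 26 genes and in 14 of 15 synthesis genes, against 39.9% of 11621 tested genes with a promoter. TCACNCCAC, a sterol regulatory element bound by SREBP2, was found only in Hmgcs1 of the 26, against 1.30% of the tested genes. The DR4 element of LXR, a direct repeat, was in 0 of the 26 and in 0 of the tested genes. Windows of 6 promoters are shown, picked by hand from genes with a CCAAT box that passed in a comparison below with the block. Pmvk also passed and has a box, but is not shown. Apoe, Lpl, Fdps, Fdft1, Sqle and Stard4 passed too but yielded no match. Each of these either lacked the box or was not among the 26 genes. Capitals mark the CCAAT box on either strand (ATTGG where it lies on the other strand) and, in Hmgcs1, the sterol regulatory element TCACCCCAC. They lie at chr13:119690167-119690230 (plus strand), chr5:4104698-4104757 (minus), chrX:72918461-72918520 (plus), chr1:169969206-169969265 (minus), chr5:28071168-28071227 (plus) and chr19:6067866-6067925 (minus).
Hmgcs1: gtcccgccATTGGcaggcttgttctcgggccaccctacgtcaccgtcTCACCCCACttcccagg
Cyp51: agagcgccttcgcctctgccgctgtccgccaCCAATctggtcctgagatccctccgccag
Nsdhl: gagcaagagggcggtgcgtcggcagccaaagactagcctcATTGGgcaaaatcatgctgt
Hsd17b7: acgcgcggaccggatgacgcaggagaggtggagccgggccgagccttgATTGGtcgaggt
Insig1: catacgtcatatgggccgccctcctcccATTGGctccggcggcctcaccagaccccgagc
Tm7sf2: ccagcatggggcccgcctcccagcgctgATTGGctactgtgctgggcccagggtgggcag
In Hmgcs1 the box and the element stand in 1 stretch of 64 bases, and in the other 5 windows the box stands alone. A match is a run of letters in this window and was not measured as a site in these cells. A missing match does not mean a missing site, since only exact spellings were searched.

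Transcript levels along the chain were uneven and did not fall steadily from its entry to its end. Per kilobase of exon, Hmgcs1, which makes HMG-CoA ahead of mevalonate, was the highest of the 34 genes at 266 CPM per kb (mean of 12 libraries), followed by Scd2, a fatty acid desaturase, at 215. Cyp51, the lanosterol demethylase, was at 79.3, Acat2, the cytosolic thiolase that starts the chain, at 70.7, and Srebf2, which encodes SREBP2, at 69.4. Most enzymes after squalene were lower than these, with Dhcr7, which makes cholesterol in the last step, at 14.7 and Ebp, the sterol isomerase, at 6.30. Of the 5 efflux and lipid loading genes, Apoe, the main apolipoprotein of the brain, ranked 23 of 34 at 8.22 CPM per kb. The other 4 ranked 30 or lower, with Mylip, a ligase for lipoprotein receptors, at 2.71, Abca1, the transporter that loads Apoe with cholesterol, at 2.06, Abcg1 at 1.39 and Lpl, lipoprotein lipase, at 1.31.

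**Figure D1:**
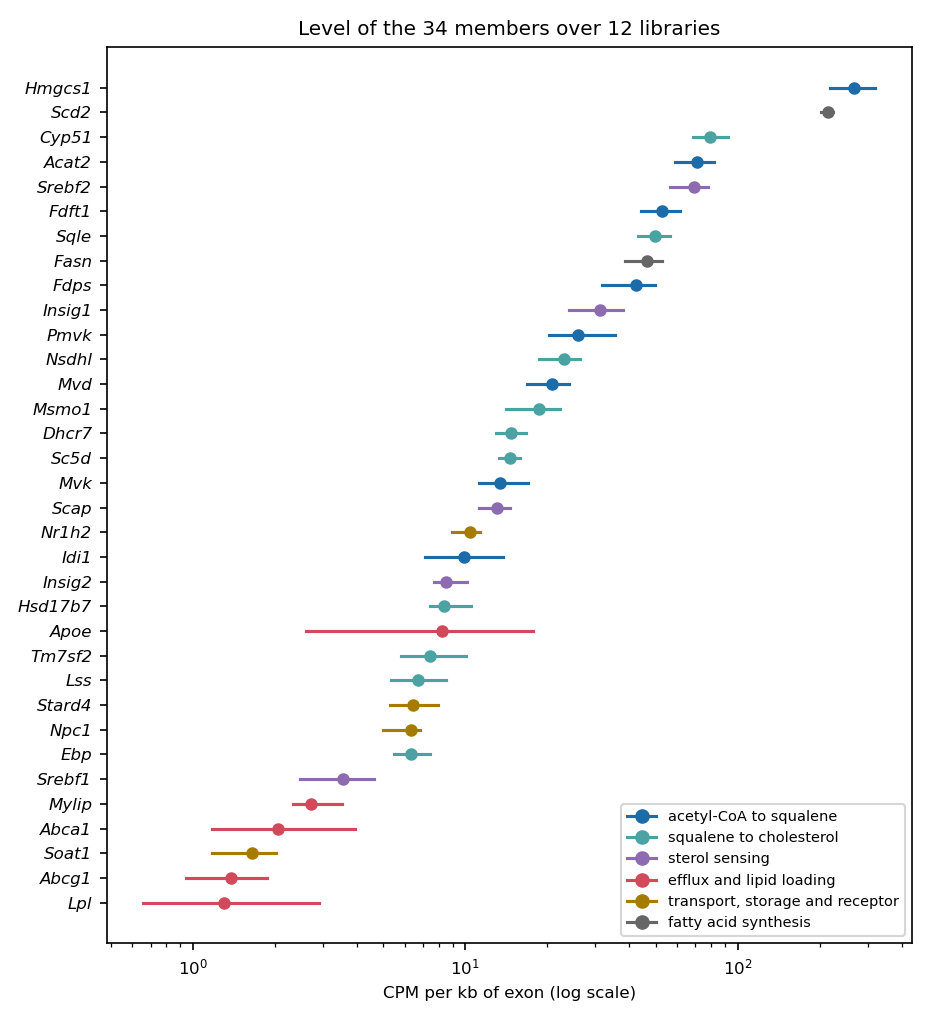
CPM per kb of exon (log axis) of the 34 genes over the 12 libraries, coloured by role. Points are means and lines run from the lowest to the highest library. Hmgcs1 leads at 266, Lpl is last at 1.31, and the lines of Apoe, Lpl and Abca1 are the widest.

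The question put to each coat was how the transcripts of cells grown on it differed from those on the polymer alone. Without the replicate number in the fit, none of the 34 genes passed an adjusted p of 0.05 (edgeR quasi-likelihood test, Benjamini-Hochberg over all genes) in any of 7 comparisons. At an unadjusted p under 0.05 there were 6 members with Myelin against PDL (17.5% of all genes), 4 with Laminin (17.4%) and 7 with laminin plus myelin (16.8%), and over all genes 2.29%, 0% and 1.25% passed. DESeq2 called 0, 0 and 1 of the members and 6.91%, 3.50% and 6.23% of all genes, so the members' shares were below that background. Against Laminin, 1 member reached an unadjusted p under 0.05 on Myelin (1.63% of all genes) and 1 on laminin plus myelin (1.28%), and 0.0254% and 0.0191% of all genes passed. DESeq2 called 0 members there, and 0.0572% and 0.0381% of all genes. With the replicate number as a block, 6 of 34 passed with Myelin against PDL, 5 higher and 1 lower, where 14.4% of all genes passed, 4.37% higher. With Laminin against PDL 2 of 34 passed, both higher, where 8.15% of all genes did and 2.66% were higher. With laminin plus myelin 10 of 34 passed, all higher, where 13.6% of all genes did and 4.30% were higher. Below, "rose" and "fell" are said of genes that passed in the fit with the block, and log2 changes are from that fit unless another is named.

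These 3 comparisons share the PDL libraries, so they are not independent of each other. The share of reads outside genes set PDL apart from all 9 other libraries, and the coat and this share cannot be told apart there. With both the block and that share in the fit, an alternative chosen after seeing the data, 0 members and 0% of all genes passed against PDL on any coat. Apoe was then 1.89 ± 0.37 (adjusted p = 0.4, edgeR) with Myelin and 1.77 ± 0.37 (0.481) with both, with larger values and larger errors than in the fit with the block alone. The values of the other calls against PDL lay nearer 0 or turned, and those of Hmgcs1, Insig1, Sqle, Cyp51, Nsdhl, Stard4 and Pmvk lay between 0.05 and 0.17. The counts also turned on single libraries, and so did the counts over all genes. With Myelin 2 passed when PDL replicate 2 or either of Myelin replicates 2 and 3 was left out (1.79%, 0.997% and 4.71% of all genes), and 15 without Laminin replicate 1, the library with the lowest share outside genes (32.6%). With laminin plus myelin 0 passed without PDL replicate 2 (0.0877% of all genes), 1 without PDL replicate 1 or replicates 2 or 3 of that coat (2.68%, 1.63% and 2.20%), 2 without its replicate 1 (7.83%), 6 without Myelin replicate 3 (8.84%) and 17 without Laminin replicate 1 (32.2%). With Laminin 3 passed without PDL replicate 3 or Laminin replicate 2 (8.02% and 15.5% of all genes), 1 without Laminin replicate 3 (9.22%) and 0 without any of the other 9 libraries (0% to 6.06%). Among single genes, in the 12 fits that each left out 1 library, Fdps passed in 5 with Myelin, 3 with Laminin and 7 with both, Hmgcs1 in 3 with Myelin and 7 with both, and Insig1 in 7 and 6. Tm7sf2 passed with Myelin in 9. With both coats Sqle and Nsdhl passed in 7, Stard4 in 4, Fdft1 in 3 and Cyp51 in 2, and Pmvk with Laminin in 1. With myelin averaged over laminin, Hmgcs1, Hsd17b7 and Insig1 passed in 2 and Tm7sf2 in 4.

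**Figure D2:**
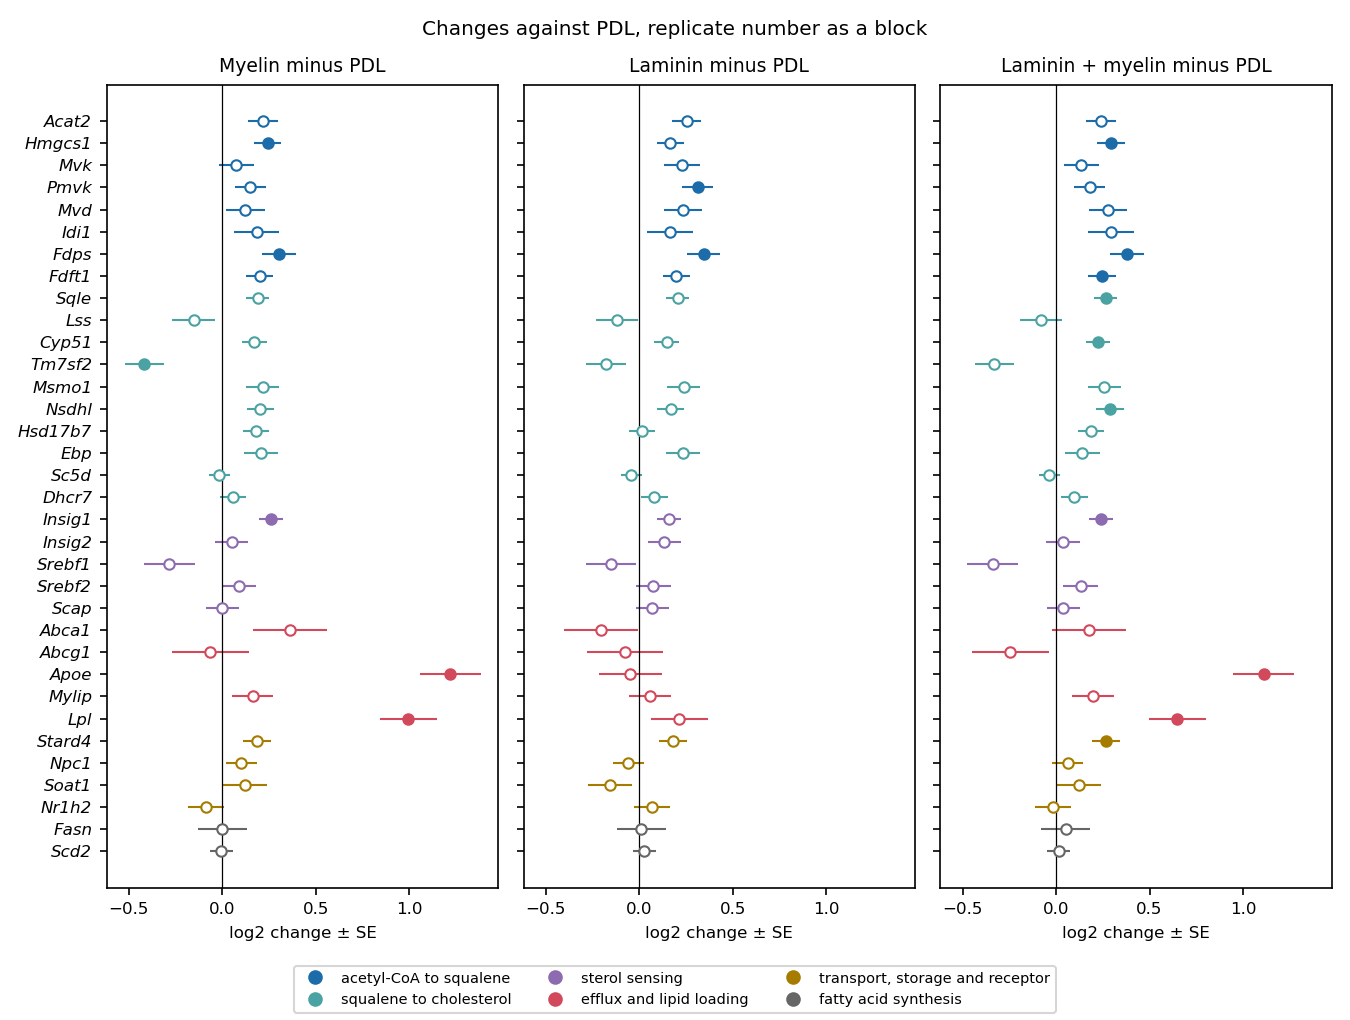
Log2 change against PDL (points, with bars of 1 SE) of the 34 genes on 3 coats, with the replicate number as a block. Filled points passed an adjusted p of 0.05. Most synthesis genes lie between 0 and 0.4 on every coat, and Apoe (1.22 ± 0.16) and Lpl (0.99 ± 0.15) stand out on the coats with myelin but not on Laminin.

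The 8 enzymes from acetyl-CoA to squalene all had a log2 change above 0 against PDL, with Myelin (median 0.19), Laminin (0.23) and laminin plus myelin (0.26), where 52.4%, 52.3% and 53.3% of all genes were above 0, beside medians of 0.01, 0.02 and 0.02 over all genes. Of the 8, 2, 2 and 3 passed, where 14.4%, 8.15% and 13.6% of all genes did. Fdps (GRCm38 chromosome 3, 89093588 to 89101959, minus strand) makes farnesyl diphosphate, the branch point between sterols and prenylated proteins. It was at 133, 165 and 149 on PDL, 209, 195 and 164 on Laminin, 169, 204 and 178 on Myelin, and 202, 202 and 177 on laminin plus myelin (CPM, replicates 1, 2 and 3). Its 3 Myelin and 3 laminin plus myelin libraries were all above the 3 of PDL, while Laminin replicate 3 was slightly below the highest PDL library. Fdps rose on all 3 coats, by 0.30 ± 0.09 (SE; adjusted p = 0.0433, edgeR) with Myelin, 0.34 ± 0.09 (0.0413) with Laminin and 0.38 ± 0.09 (0.0197) with both. Without the block its adjusted p were 0.2, 0.208 and 0.12. With the share outside genes also in the fit, the values turned to -0.11 ± 0.18, -0.04 ± 0.17 and -0.01 ± 0.18. Another annotated gene model, Gm43738, covers 26.7% of its exon length on the same strand, and reads of the pair may share a count.

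Hmgcs1 (GRCm38 chromosome 13, 119690379 to 119708260, plus strand), whose promoter is shown above, was at 1007, 1141 and 1085 on PDL, 1197, 1322 and 1117 on Laminin, 1176, 1473 and 1195 on Myelin, and 1350.1, 1460.0 and 1166 on laminin plus myelin CPM. Every Myelin and laminin plus myelin library was above every PDL library, and Laminin replicate 3 lay within the range of PDL. Hmgcs1 rose by 0.24 ± 0.07 (adjusted p = 0.0435, edgeR) with Myelin and by 0.29 ± 0.07 (0.0235) with both, and was 0.17 ± 0.07 (0.135) with Laminin. Antisense exons of Gm48342 cover 557 of its exonic bases. Pmvk, which phosphorylates mevalonate a second time, was at 41.3, 42.8 and 34.8 on PDL, 60.9, 46.1 and 41.8 on Laminin, 46.6, 45.1 and 39.9 on Myelin, and 51.0, 45.4 and 38.9 on laminin plus myelin CPM. It rose with Laminin, by 0.31 ± 0.08 (0.0428, edgeR), where Laminin replicate 1 was the highest of the 12 libraries and replicate 3 lay within the PDL range. With Myelin it was 0.15 ± 0.08. With the share outside genes also in the fit, the Laminin value was 0.05 ± 0.18, and with that share but no block it turned to -0.21.

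Fdft1, squalene synthase, commits farnesyl diphosphate to sterols. It was at 197, 214 and 187 on PDL, 259, 229 and 199 on Laminin, 230.4, 251 and 205 on Myelin, and 260.1, 239 and 210.5 on laminin plus myelin CPM, and in each replicate number the PDL library was the lowest. Fdft1 rose with laminin plus myelin, by 0.25 ± 0.07 (adjusted p = 0.045, edgeR). With the share outside genes also in the fit this turned to -0.03 ± 0.15. Its exons overlap those of Ctsb, a lysosomal protease gene on the opposite strand, over 18.3% of their length. The other 4 enzymes did not pass with any coat. Acat2 came close, at 0.25 ± 0.08 (0.0627) with Laminin and 0.24 ± 0.08 (0.0613) with both, and its 9 libraries off PDL, from 171 to 208 CPM, were all above the PDL ones, from 149.7 to 165. Mvk, mevalonate kinase, Mvd, which makes isopentenyl diphosphate, and Idi1, its isomerase, ranged from 0.08 to 0.29 over the 3 coats.

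The 10 enzymes from squalene to cholesterol did not move as one. In each comparison with PDL 7 were above 0, with medians of 0.18 (Myelin), 0.11 (Laminin) and 0.16 (both), and the numbers that passed were 1, 0 and 3. Over all genes 52.4%, 52.3% and 53.3% were above 0, and 14.4%, 8.15% and 13.6% passed. The counts with Myelin and Laminin were not above that share. Sqle, squalene epoxidase, a rate-limiting step after squalene, was at 239.7, 261 and 238 on PDL, 293, 298 and 261 on Laminin, 281, 305 and 258 on Myelin, and 314, 310.0 and 266 on laminin plus myelin CPM. In the 9 libraries off PDL it ranged from 258 to 314, overlapping PDL only through Myelin replicate 3. Sqle rose with laminin plus myelin, by 0.27 ± 0.06 (adjusted p = 0.0178, edgeR), and just missed the threshold with Laminin (0.21 ± 0.06, 0.0557) and Myelin (0.19 ± 0.06, 0.0559). Cyp51 was at 303, 338 and 311 on PDL, 355, 379.9 and 321 on Laminin, 342, 402 and 332 on Myelin, and 387, 405 and 324 on laminin plus myelin CPM, and its laminin plus myelin libraries overlapped those of PDL through replicate 3. Nsdhl, a sterol dehydrogenase in the removal of the C-4 methyl groups, was at 53.0, 63.3 and 59.8 on PDL, 66.8, 70.2 and 60.8 on Laminin, 61.8, 73.0 and 68.0 on Myelin, and 73.4, 75.5 and 66.0 on laminin plus myelin CPM, with no overlap between laminin plus myelin and PDL. Both rose there, Cyp51 by 0.22 ± 0.07 (0.0438, edgeR) and Nsdhl by 0.29 ± 0.07 (0.026).

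Tm7sf2 (GRCm38 chromosome 19, 6062821 to 6068373, minus strand), a sterol C-14 reductase, went the other way. It was at 37.3, 44.5 and 32.6 on PDL, 34.2, 34.7 and 32.1 on Laminin, 33.5, 25.7 and 26.5 on Myelin, and 33.8, 29.4 and 27.9 on laminin plus myelin CPM. In each replicate number the PDL library was the highest of the 4 coats, although Myelin replicate 1 lay above PDL replicate 3. Tm7sf2 fell with Myelin, with a log2 change of -0.42 ± 0.11 (adjusted p = 0.0232, edgeR; 0.131 without the block), and was -0.33 ± 0.10 (0.0566) with both and -0.18 ± 0.10 (0.252) with Laminin. With the block and the share outside genes both in the fit, the Myelin value turned to 0.04 ± 0.22 (0.961). Its exons share 532 bases with Vps51 on the same strand. Lbr, a lamin B receptor that carries out the same reduction, was also lower with Myelin, at -0.27 ± 0.08 (0.0422). Lss, lanosterol synthase, was below 0 on all 3 coats without passing, at -0.15 ± 0.11 with Myelin. Msmo1, the sterol C-4 methyl oxidase (0.22 ± 0.09 with Myelin), and Ebp (0.21 ± 0.09) were above 0 without passing. Sc5d and Dhcr7, which carry out the closing steps, stayed between -0.04 and 0.10.

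Hsd17b7, a ketosteroid reductase of the same demethylation, was one of 2 synthesis genes that rose with myelin averaged over laminin (6 libraries with myelin against 6 without). It was at 38.4, 42.3 and 39.0 on PDL, 38.1, 44.8 and 38.5 on Laminin, 41.5, 53.5 and 41.4 on Myelin, and 45.5, 48.7 and 42.2 on laminin plus myelin CPM, and Myelin replicate 2 was the highest of the 12 libraries. Its averaged change was 0.18 ± 0.05 (adjusted p = 0.0481, edgeR), and that of Hmgcs1 was 0.19 ± 0.05 (0.0443). Tm7sf2 fell in the same comparison, with a log2 change of -0.28 ± 0.07 (0.0368), and 8.63% of all genes passed there. With the share outside genes also in the fit, Hsd17b7 was at 0.13 ± 0.10 (adjusted p = 0.547, edgeR) and Hmgcs1 at 0.09 ± 0.09 (0.707). Tm7sf2 was then at -0.05 ± 0.12 (0.888).

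**Figure D3:**
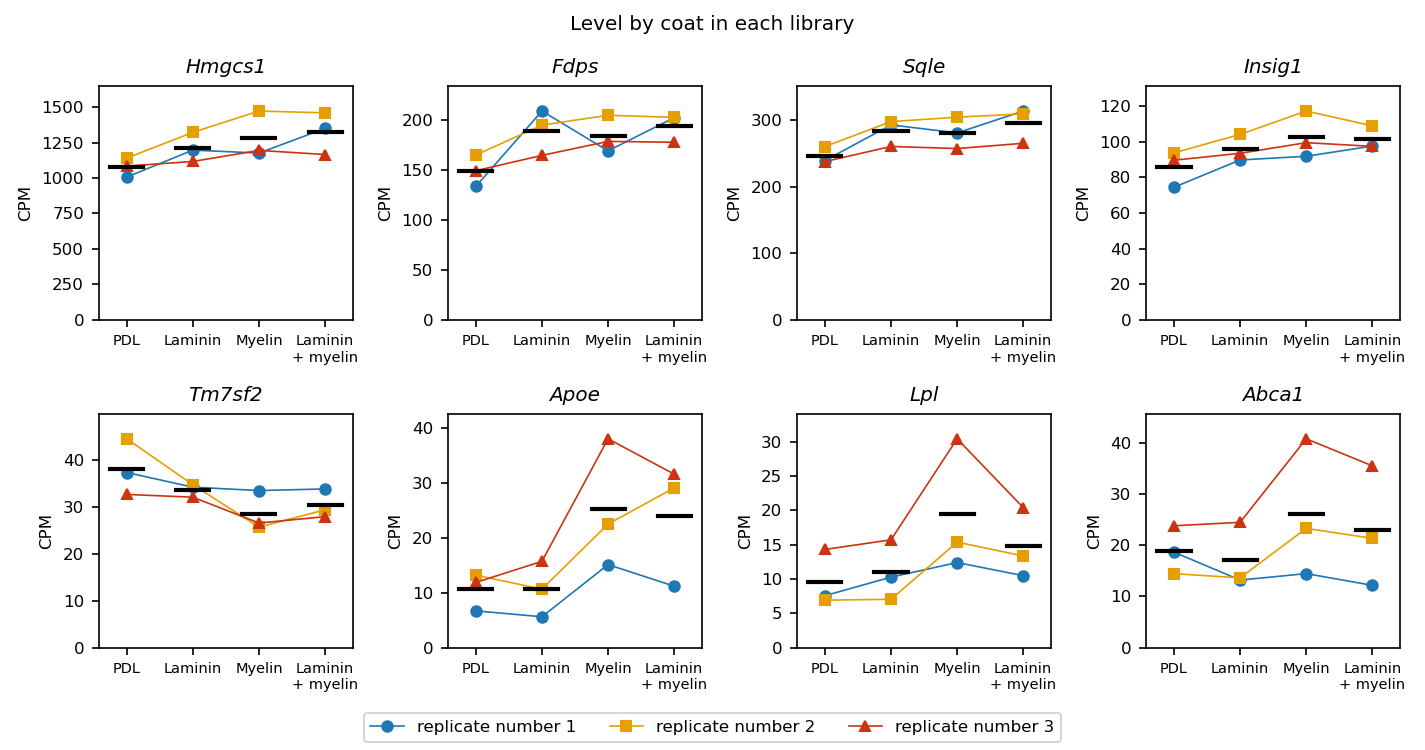
CPM of 8 genes in each library, by coat. Symbols and lines mark the replicate number, black bars the mean of 3 libraries. Hmgcs1, Fdps, Sqle and Insig1 sit lowest on PDL in every replicate number and Tm7sf2 highest, while Apoe and Lpl are higher on the 2 coats with myelin and, like Abca1, highest in replicate 3 there.

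Among the genes that sense sterol, Insig1 moved with the synthesis genes. Insig1 holds the SREBP complex in the endoplasmic reticulum and is itself an SREBP target. It was at 74.4, 93.7 and 89.6 on PDL, 89.7, 104 and 93.5 on Laminin, 91.8, 117 and 99.4 on Myelin, and 97.5, 109 and 97.4 on laminin plus myelin CPM, and in each replicate number the PDL library was the lowest. It rose by 0.26 ± 0.06 (adjusted p = 0.0217, edgeR) with Myelin and 0.24 ± 0.06 (0.0303) with both, and was 0.16 ± 0.06 (0.111) with Laminin. Srebf2 was at 501, 518 and 405 on PDL, 459, 558 and 478 on Laminin, 527, 541 and 446 on Myelin, and 545, 482 and 523 on laminin plus myelin CPM, and the coats overlapped throughout. Its change was 0.09 ± 0.09 (0.53) with Myelin and 0.13 ± 0.09 (0.345) with both. Scap, which escorts SREBP to the Golgi, was at 0.00 ± 0.09 with Myelin, and Insig2, the constitutive partner of Insig1, at 0.05 ± 0.09. Srebf1, whose product drives fatty acid synthesis and which LXR induces in liver, was at 26.1, 20.8 and 20.9 on PDL, 20.1, 18.2 and 23.3 on Laminin, 18.3, 15.7 and 22.4 on Myelin, and 16.7, 13.9 and 24.2 on laminin plus myelin CPM. It was lower than PDL in replicates 1 and 2 of both myelin coats and higher in replicate 3, with a change of -0.28 ± 0.13 (0.17) for Myelin and -0.34 ± 0.14 (0.11) for both.

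The efflux and lipid loading genes separated by coat in another way, with Apoe and Lpl higher where myelin was present and not with laminin alone. Apoe (GRCm38 chromosome 7, 19696109 to 19699188, minus strand) was at 6.67, 13.2 and 11.8 on PDL, 5.59, 10.6 and 15.7 on Laminin, 15.1, 22.5 and 38.0 on Myelin, and 11.2, 29.0 and 31.5 on laminin plus myelin CPM. In each replicate number both coats with myelin were above both coats without it, and the 3 Myelin libraries were all above the 3 of PDL. Apoe rose by 1.22 ± 0.16 (adjusted p = 0.00324, edgeR) with Myelin and 1.11 ± 0.16 (0.0052) with both, and was -0.05 ± 0.17 (0.865) with Laminin. Without the block the Myelin value was 1.25 ± 0.48 (0.204). Against Laminin in place of PDL, where the share of reads outside genes overlapped, Apoe was the only member that passed. It was higher by 1.26 ± 0.16 (0.00704, edgeR) on Myelin, where 0.114% of all genes passed, and by 1.16 ± 0.16 (0.0136) on laminin plus myelin, where 0.102% did. Both calls held when that share was added to the fit with the block (0.000331 and 0.000737, edgeR). Without the block, neither comparison with Laminin called Apoe, and the authors' deposited table did not call it there either. In the fits with the block that left out 1 library, the first call was lost without Myelin replicate 3 (adjusted p = 0.098). The second was lost without Laminin replicate 2 or replicates 2 or 3 of laminin plus myelin (up to 0.156), and Apoe against PDL with both coats without PDL replicate 2 (0.0551).

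Lpl, which frees fatty acids from lipoproteins, was at 7.56, 6.91 and 14.3 on PDL, 10.3, 7.03 and 15.7 on Laminin, 12.4, 15.4 and 30.4 on Myelin, and 10.5, 13.4 and 20.4 on laminin plus myelin CPM. In each replicate number the Myelin library was the highest of the 4 coats, and replicate 3 was above 1 and 2 on every coat. Lpl rose by 0.99 ± 0.15 (adjusted p = 0.00402, edgeR) with Myelin and 0.65 ± 0.15 (0.0195) with both, and was 0.22 ± 0.15 (0.348) with Laminin. With the share outside genes also in the fit, it was 0.33 ± 0.32 (0.714) with Myelin and 0.00 ± 0.30 (0.999) with both against PDL. Against Laminin it was 0.78 ± 0.15 (0.101) on Myelin, and 0.74 ± 0.12 (0.0165) with that share in the fit, where 0.318% of all genes passed. With myelin averaged over laminin, Apoe was higher by 1.19 ± 0.11 (0.00032, edgeR) and Lpl by 0.71 ± 0.11 (0.00578). With the share outside genes also in the fit, these averages were 1.55 ± 0.21 (0.0086, edgeR) and 0.37 ± 0.17 (0.359). In the averaged comparison with the block alone 6 of 34 members passed, where 8.63% of all genes did, and none passed without the block (0.0254% of all genes; 6 members at an unadjusted p under 0.05, where 13.6% of all genes were). DESeq2 called 1 member and 3.84% of all genes, so the members' share was below that background. The count with the block was 14 without Laminin replicate 1 (30.0% of all genes), 3 without Myelin replicate 1 (6.05%) and 2 without any library of laminin plus myelin, Laminin replicates 2 and 3, PDL replicate 2 and Myelin replicates 2 and 3 (0.601% to 6.41%). Apoe and Lpl remained called in all 12 fits with the block that left out 1 library each, for Myelin against PDL and for the average. With both coats against PDL, Lpl passed in 8 of them, and not without PDL replicates 1 or 2 or replicates 2 or 3 of laminin plus myelin.

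Abca1, Abcg1 and Mylip did not pass on any coat. Abca1 was at 18.7, 14.4 and 23.8 on PDL, 13.2, 13.6 and 24.5 on Laminin, 14.5, 23.3 and 40.8 on Myelin, and 12.2, 21.4 and 35.6 on laminin plus myelin CPM. It was higher on Myelin than on PDL in replicates 2 and 3 and lower in replicate 1, with a change of 0.36 ± 0.20 (0.228). Abcg1, which passes cholesterol on to lipoprotein particles, was at -0.06 ± 0.21 (0.857) and Mylip, which marks lipoprotein receptors for degradation, at 0.16 ± 0.11 (0.331).

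Markers of microglia were also higher on the coats with myelin, and to a smaller extent on Laminin. The 14 microglial and macrophage markers summed to 42.7, 78.4 and 110.4 CPM on PDL, 50.8, 90.5 and 142 on Laminin, 55.2, 136 and 207 on Myelin and 46.2, 127 and 203 on laminin plus myelin, in the order of replicates 1 to 3. With Myelin against PDL all 14 were above 0 (median 0.76) and 10 rose, where 52.4% of all genes were above 0 and 4.37% called higher. Trem2, a lipid receptor of microglia, was among the 10, by 3.33 ± 0.27 (adjusted p = 7.75e-05, edgeR; 0.0408 without the block). With Laminin against PDL 13 were above 0 (median 0.44) and 4 rose, where 52.3% of all genes were above 0 and 2.66% called higher. With laminin plus myelin against PDL all 14 were above 0 (median 0.53) and 8 rose, where 53.3% of all genes were above 0 and 4.30% called higher. With Myelin against Laminin 12 were above 0 and 2 rose, C1qa and Trem2, where 0.114% of all genes passed in either direction. Without the block, 43.9% of all genes were above 0 there. In replicates 2 and 3 both the sum and Apoe were higher on laminin plus myelin than on Laminin. In replicate 1 the sum was lower on laminin plus myelin (46.2 against 50.8) and Apoe was higher, at 11.2 against 5.59 CPM. The 13 markers of mature myelin summed to 73.2 to 93.4 CPM on PDL, 72.0 to 101 on Laminin, 305 to 939 on Myelin and 297 to 507 on laminin plus myelin. The 9 astroglial markers summed to 899.7 to 1100.2, 951 to 987, 1015 to 1161 and 1033 to 1117. The part of these cells, or of RNA in the myelin coat, in the values of Apoe and Lpl was not tested. In bulk RNA, more cells of a type and more RNA per cell cannot be told apart.

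**Figure D4:**
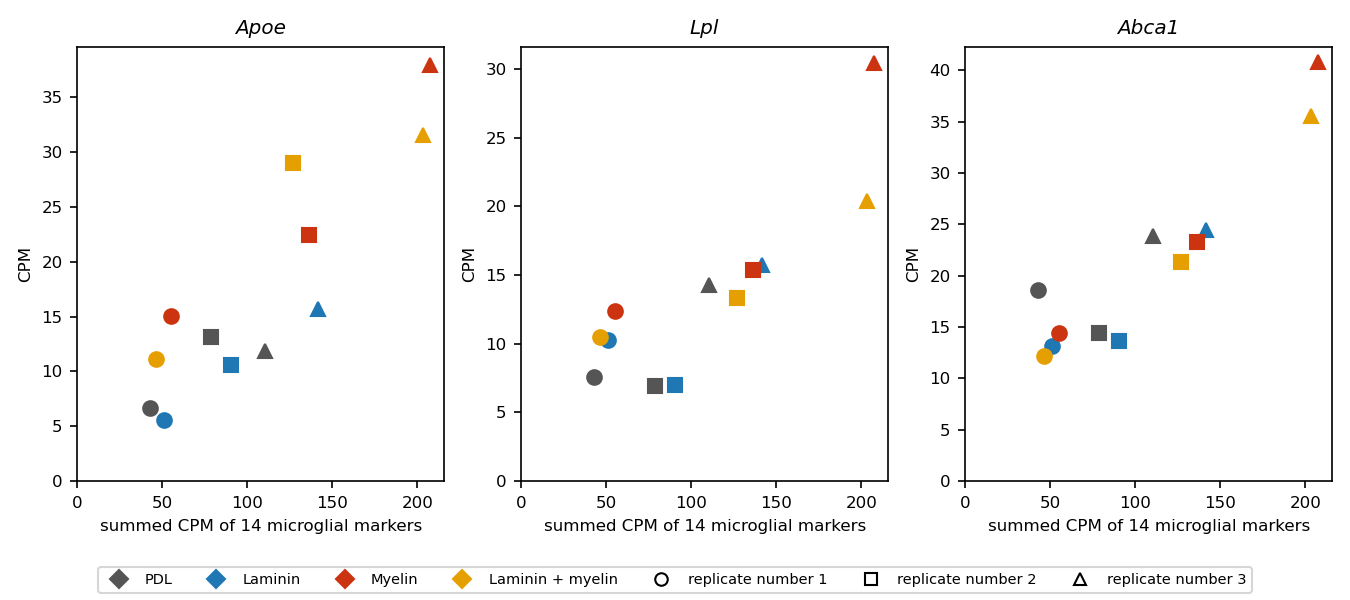
CPM of Apoe, Lpl and Abca1 (y axes) against the summed CPM of 14 microglial markers (x axis) in the 12 libraries, coloured by coat and shaped by replicate number. The 2 libraries with myelin of replicate 3 are highest on both axes in all 3 panels, and the PDL and Laminin libraries of replicate 3 lie below those with myelin of replicate 2 for Apoe.

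The genes of sterol transport and storage differed little. Stard4, a carrier of cholesterol between membranes and an SREBP2 target, was at 29.5, 35.6 and 31.2 on PDL, 35.0, 38.8 and 35.0 on Laminin, 31.1, 44.3 and 34.7 on Myelin, and 36.6, 41.3 and 37.7 on laminin plus myelin CPM, and the laminin plus myelin libraries lay above those of PDL. It rose there by 0.27 ± 0.08 (adjusted p = 0.0393, edgeR) and was 0.18 ± 0.08 (0.121) with Myelin. Npc1, which lets cholesterol out of lysosomes, was at 0.10 ± 0.08 with Myelin, Soat1, which esterifies it for storage, at 0.12 ± 0.12, and Nr1h2, the LXR beta receptor, at -0.09 ± 0.10. Of the 2 fatty acid genes, Scd2 was at -0.01 ± 0.06 and Fasn, fatty acid synthase, at 0.00 ± 0.13, both near 0.

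Beyond the 34, a further 56 genes of the same pathways were listed and 54 tested. One list joined LXR and oxysterol genes with genes of lipid-laden phagocytes and lipid droplets. Of its 11 tested genes, 3 rose with Myelin against PDL and 0 fell, where 4.37% of all genes were called higher. The 3 were Gpnmb, Plin2 and Lgals3, and the rest, Lpcat3 and Smpdl3a among them, did not pass. The activity of LXR was not measured. Gpnmb, a glycoprotein of lipid-laden phagocytes, was at 0.313, 0.394 and 0.525 on PDL, 0.508, 1.57 and 0.438 on Laminin, 2.30, 3.05 and 6.50 on Myelin, and 1.32, 3.24 and 7.50 on laminin plus myelin CPM, with every library with myelin above every PDL library. It rose by 3.23 ± 0.51 (adjusted p = 0.00431, edgeR) and passed without the block too (3.26 ± 0.72, 0.0417), the one gene of these 4 lists to do so. Plin2, which coats lipid droplets, rose by 1.01 ± 0.17 (0.00572) and Lgals3, a galectin of activated macrophages, by 1.43 ± 0.20 (0.00358). All 3 also rose with laminin plus myelin, where 4.30% of all genes were called higher. With Laminin 0 of 11 changed, where 8.15% of all genes passed.

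Of 20 genes of sterol transport and lysosomes, 3 rose and 1 fell with Myelin, where 14.4% of all genes passed in either direction. That share is close to theirs, as it is for the 2 of 11 isoprenoid genes and 1 of 12 fatty acid genes below. Lipa, the lysosomal acid lipase, rose by 0.55 ± 0.14 (adjusted p = 0.0214, edgeR) and Clu, an apolipoprotein of astrocytes, by 0.70 ± 0.19 (0.0324, edgeR). Apod, a lipocalin, rose by 2.12 ± 0.48 (0.015, edgeR), although it was under 1 CPM in every library. Abca7, a lipid transporter, was at 39.3, 32.5 and 28.0 on PDL, 15.8, 23.3 and 23.4 on Laminin, 21.9, 13.8 and 20.4 on Myelin, and 19.7, 14.6 and 20.6 on laminin plus myelin CPM, with all 9 libraries off PDL below the 3 on it, and fell, with log2 changes of -0.84 ± 0.19 (0.0156) with Myelin and -0.87 ± 0.19 (0.0155) with both. With both, Pltp, a phospholipid transfer protein, rose with Apod and Clu, and Osbpl9 fell with Abca7 (3 higher and 2 lower of 20, where 13.6% of all genes passed). Vldlr, a lipoprotein receptor, fell with Laminin, at -0.23 ± 0.07 (0.0492), as 1 of the 20, where 8.15% of all genes passed. Of 11 genes of isoprenoids and late synthesis, Nus1, a subunit of the dolichol-making transferase, rose with Myelin, by 0.28 ± 0.07 (0.0253), and Lbr fell. Acat1, the mitochondrial thiolase, rose with Laminin, by 0.30 ± 0.08 (0.0467). Of 12 fatty acid genes, Pnpla3, a lipid droplet protein, fell with Myelin, at -0.96 ± 0.23 (0.0172), and with both, at -0.92 ± 0.22 (0.0228), and Mid1ip1, which activates acetyl-CoA carboxylase, rose with Laminin, by 0.28 ± 0.07 (0.0359).

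The 18 synthesis genes and the 5 efflux genes can be set side by side as lists, although 2 of the 5 efflux genes passed on any coat and the difference between the lists was not tested. In the fit without the block, the median log2 change of the synthesis genes against PDL was 0.19 with Myelin, 0.19 with Laminin and 0.24 with both, with 15 of 18 above 0 each time (52.8%, 52.2% and 53.7% of all genes). Between Myelin and Laminin it was -0.02, with 6 of 18 above 0, beside -0.02 and 43.9% over all genes. The efflux genes had medians of 0.47 with Myelin, 0.01 with Laminin and 0.28 with both against PDL. Between Myelin and Laminin their median was 0.61 with 5 of 5 above 0. With upper-quartile scaling the Laminin value turned to -0.01, and with no scaling it also turned to -0.01.

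As mean log2 CPM per library, the synthesis genes were at 6.29, 6.49 and 6.30 on PDL, 6.57, 6.58 and 6.38 on Laminin, 6.44, 6.61 and 6.40 on Myelin and 6.59, 6.58 and 6.42 on laminin plus myelin. The efflux genes were at 3.35, 3.31 and 3.66, 3.25, 3.25 and 3.79, 3.57, 3.86 and 4.49 and 3.28, 3.84 and 4.32. In each replicate number the PDL library had the lowest synthesis mean. The efflux mean was higher on Myelin than on PDL and Laminin in each number, and on laminin plus myelin in replicates 2 and 3 but not against PDL in replicate 1. The efflux mean minus the synthesis mean was -2.92 ± 0.27 on PDL and -2.51 ± 0.52 on Myelin (SD, n = 3). Myelin was higher by 0.41, which is less than the SD on Myelin, an SD that holds the differences between replicate numbers. In replicates 1, 2 and 3 the value was -2.95, -3.18 and -2.64 on PDL and -2.86, -2.75 and -1.91 on Myelin, higher on Myelin each time. Without Myelin replicate 3 the means differed by 0.11, with PDL replicate 3, the highest of PDL, kept in. No interaction of myelin with laminin was called among the members, with or without the block (0% of all genes; 1 member, Ebp, at an unadjusted p under 0.05 without it, where 6.62% of all genes were, and 0 by DESeq2, which called 0.0508% of all genes).

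**Figure D5:**
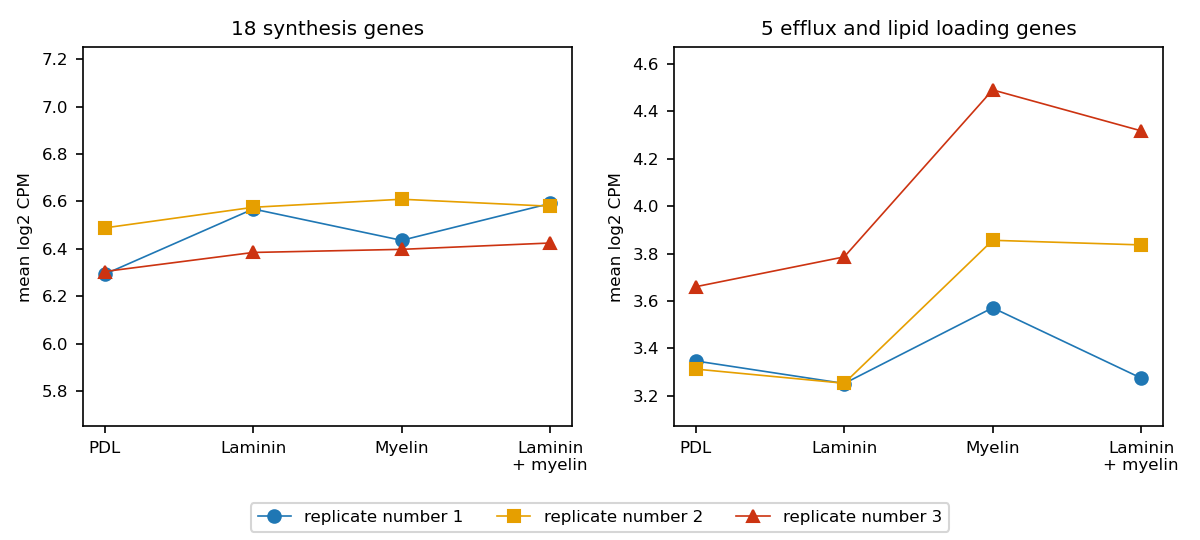
Mean log2 CPM of the 18 synthesis genes (left) and of the 5 efflux and lipid loading genes (right) in each library, by coat, with lines joining libraries of 1 replicate number. Both axes span the same range. Synthesis means lie from 6.29 to 6.61 and efflux means from 3.25 to 4.49, the highest in Myelin replicate 3.

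Many of these genes also differed in level between the replicate numbers. With the coat in the fit, 16 of 34 members differed between the numbers, where 39.9% of all genes did, a share near that background. Insig1 (adjusted p = 0.00681, edgeR F test), Hsd17b7 (0.0142) and Hmgcs1 (0.0197) were highest in number 2. Apoe, Lpl and Abca1 were highest in number 3, by log2 values of 1.30, 0.95 and 1.05 over number 1 (adjusted p = 5.85e-05, 0.000103 and 0.000839). The microglial markers summed to means of 48.7, 108 and 166 CPM in numbers 1, 2 and 3, and 13 of the 14 differed between the numbers. Their part in the levels of these 3 genes was not tested.

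In the authors' deposited table, 0 of the 34 genes had an adjusted p under 0.05 in any of 6 pairs of coats. The lowest was that of Apoe, at 0.0702 for Myelin against PDL and 0.117 for laminin plus myelin against PDL in the authors' deposited table, and for Laminin against PDL it was that of Fdps, at 0.258.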

How the data were processed

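Whole-number counts per gene for 12 libraries were used as the authors deposited them, without normalization. The authors' deposited log2 fold changes and p-values come from their own comparisons. Their 12 columns of normalized values were not used. Per the submitters' processing notes, CASAVA 1.8.2 and edgeR were used and the builds were mm10 and GRCm38. Aligner, counter and strandedness were not given in the sources used here. Overlapping or antisense genes may therefore share counts. Of 21033 entries, 3 named no gene and were left out; they held the reads outside genes (8.46% to 19.4% of counts), in several places (11.5% to 13.6%) and in several genes (0.579% to 0.717%).

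Genes passing filterByExpr were fitted in R 4.3.3 with the quasi-likelihood test of edgeR 4.0.16 (limma 3.58.1), robust, with TMM factors and a coefficient per coat for all 12 libraries. P-values were adjusted by Benjamini-Hochberg over 15737 genes, with a threshold of 0.05. Alternatives were the replicate number as a block, other scaling, no filter, DESeq2 1.42.0, a covariate for reads outside genes, and leaving out each library. The script was tested on simulated data. The block was used beside the first fit because deviations of log2 CPM (prior count 2) correlated in all 18 pairs with the same number (0.218 to 0.83, against -0.77 to 0.243 in 36 pairs with different numbers). This is read from the counts. The coefficient of variation fell from 0.205 to 0.0901 with it.

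CPM used TMM-scaled library sizes. Exon lengths and positions are from GENCODE M21 on GRCm38. Motif searches and figures used Python 3.11.15, pandas 2.3.3, numpy 2.4.6 and matplotlib 3.10.9. Members and lists were chosen with earlier results of these data known. Values in every library are given for members that passed with or without the block, those among the 3 with the largest changes in Myelin against PDL, Laminin against PDL or Myelin against Laminin, and Srebf2, Insig1, Abca1 and Apoe.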

Additional observations from a re-analysis of the deposited data

How the results depend on the processing

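Without the block, 0 members passed in every comparison of coats under DESeq2 size factors, no filter, a covariate for reads outside genes and each left-out library (range 0 to 0). DESeq2 called 1 with laminin plus myelin against PDL (Fdps) and 1 for myelin averaged over laminin (Apoe). The replicate block called 6 (Myelin against PDL), 2 (Laminin against PDL), 10 (laminin plus myelin against PDL), 1 (laminin plus myelin against Laminin), 1 (Myelin against Laminin) and 6 (average). With the block and that covariate together, which was chosen after seeing the data, 1 passed for laminin plus myelin against Laminin, 2 for Myelin against Laminin (Apoe and Lpl) and 1 for the average. Leaving out each library with the block gave 2 to 15 for Myelin against PDL, 0 to 3 for Laminin against PDL, 0 to 17 for laminin plus myelin against PDL, 0 to 2 against Laminin on either coat with myelin, 2 to 14 for the average and 0 to 0 for the interaction. For the replicate number the range was 6 to 20, with 9 without Laminin replicate 3, 6 without Myelin replicate 2 and 8 without Myelin replicate 3. With the covariate, Pmvk turned to -0.21 (Laminin against PDL) and Fdft1 to -0.0899 (laminin plus myelin against PDL). With the block as well, Fdps turned to -0.109, -0.0413 and -0.0135 (Myelin, Laminin and both against PDL), Tm7sf2 to 0.0398 (Myelin), and Fdft1 to -0.0293 and Lpl to -0.00151 (both). The cause was not tested. The difference between the efflux and synthesis means, Myelin minus PDL, was 0.41 and ran from 0.113 to 0.591 over left-out libraries.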
